A study of Mus musculus with 4 samples.

Results

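Dendritic cells (DCs) of the spleen titled CD8+CX3CR1- were compared with spleen DCs titled DN (double negative), with 1 Affymetrix mouse whole-genome array a side, across all genes that the array names. These are 2 of the 4 arrays of the series; the others hold CD8+CX3CR1+ and CD4+ DCs and are given beside the compared values as context. All cells came from spleens of Cx3cr1gfp/+ C57BL/6 mice, in which a green fluorescent protein gene replaces 1 copy of Cx3cr1, and all groups carry that allele and the label of no BMP4 treatment. After collagenase D digestion and magnetic enrichment for CD11c, cells high in CD11c were sorted. The titles say nothing of which markers the DN cells lack. The sources used here do not give the age or sex of the mice, their number, any pooling, or the gates. The groups were taken from the titles, because a characteristics field of the labels reads CD8+CX3CR1+ for the CD8+CX3CR1- array and CD4+ for the DN array.

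Spleen holds 2 kinds of conventional DC. CD8 DCs, or cDC1, depend on the transcription factors Irf8 and Batf3, take up dead cells and present their antigens on MHC class I molecules to CD8 T cells, a route called cross-presentation. CD11b DCs, or cDC2, include CD4+ cells and cells with neither CD4 nor CD8, depend on factors such as Irf4 and on Notch2 signals, and present well on MHC class II molecules to CD4 T cells.

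Values are MAS5 signals, the brightness of a probe set on a linear scale after each array as a whole was scaled, and they can be compared between arrays for a gene but not between genes. A floor of 55.7 was set from 127 probe sets for chemosensory receptors and hair proteins, which spleen is not known to make, and values under it were raised to it. The same percentile in CD8+CX3CR1- DCs alone was 62.6 and in DN DCs 52.8, so a value between 55.7 and 62.6 in CD8+CX3CR1- DCs lies within the background of that array, and a fold against it is best read as a bound. Where 1 of the arrays was under the floor the fold is given as "at least". A gene was counted as apart when its 2 signals differed at least 4-fold, a log2 difference of 2. With 1 array per group there is no replicate, no test is possible, and every difference is one between 2 arrays. In sorted bulk samples, fewer cells of a type and less RNA per cell cannot be told apart. The arrays were alike in depth of signal: 41.0% of probe sets lay above the floor in CD8+CX3CR1- DCs and 42.5% in DN DCs. The 3' to 5' signal ratio, in which RNA degradation shows, was 8.33 and 7.56 for Gapdh and 1.79 and 2.24 for actin, in the same order.

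Of 18193 named genes, 10810 were above the floor on at least 1 of the 2 arrays, and 8367 of these on both. On the CD8+CX3CR1- array 93 genes were at least 4-fold higher (0.86% of those measured), and in DN DCs 162 genes were (1.5%), so that 255 genes (2.36%) were apart in either direction. The differences were larger on the DN side: 42 genes were at least 10-fold higher there and 13 in CD8+CX3CR1- DCs. The remaining profile was alike, with 87.3% of measured genes within 2-fold and a median log2 difference (CD8+CX3CR1- minus DN throughout) of 0.005. Across genes, which are not independent replicates, the log2 signals of the arrays correlated with a Pearson r of 0.911. Of the 93 genes 27 are bounds, and of the 162 genes 57 are. Of the 255, 99 had another measured probe set, that is, one above the floor on at least 1 of the 2 arrays. In 91 all such probe sets differed in the same direction, by any amount. A mean over the probe sets of a gene, where given, also takes in probe sets under the floor on both arrays. Over 3281 genes with several measured probe sets, the SD of the log2 difference between probe sets of a gene had a median of 0.32, which measures probe error and not the spread between mice or sorts. None of the 4741 genes whose brighter signal was under 200 could be called, since the floor leaves too little range. Just inside the threshold lay Unc119b (4.01-fold, but log2 0.30 with the mean over its probe sets) and Cfap298 (at least 4.04-fold) on one side and Gbp7 and Gngt2 (4.06-fold and at least 4.06-fold) on the DN side. Just outside lay Cpne8, which came to 4-fold only after rounding, Fndc5 (at least 3.95-fold) and, on the DN side, Tec (3.96-fold) and Flvcr1 (3.94-fold).

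**Figure D1:**
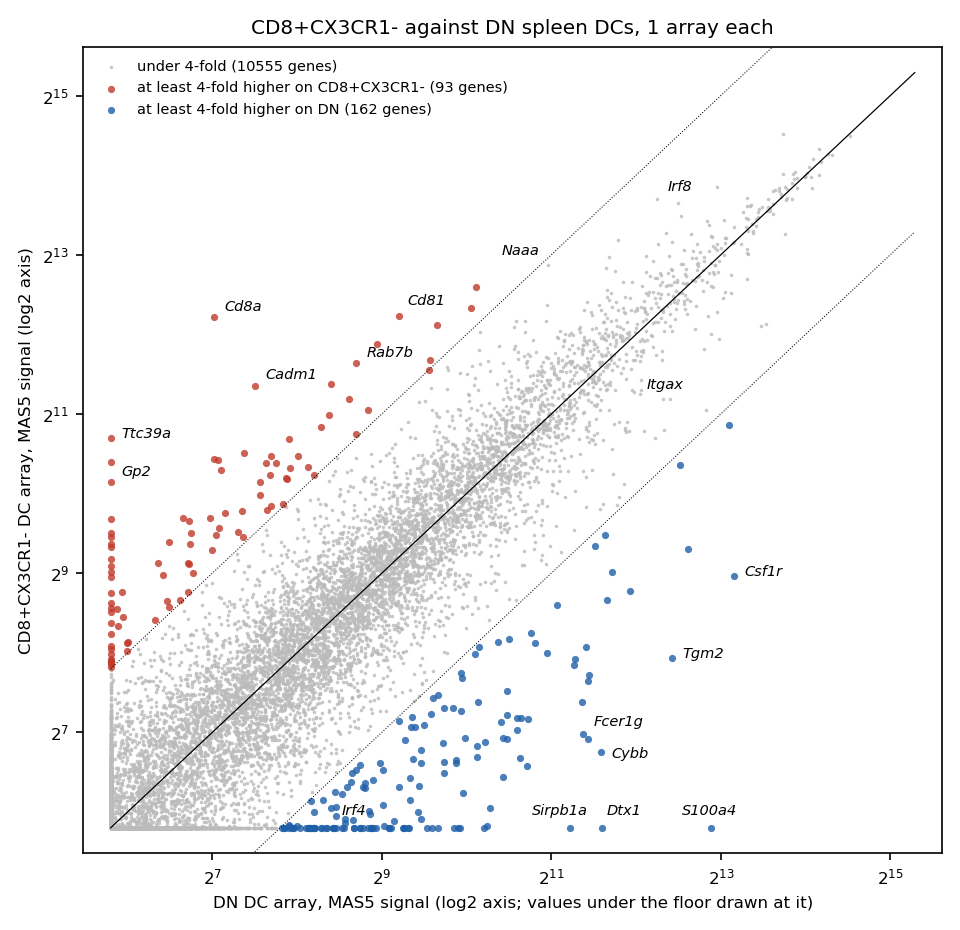
Signal of each of the 10810 measured genes in DN DCs (horizontal, log2 axis) and in CD8+CX3CR1- DCs (vertical, log2 axis), with values under the floor of 55.7 drawn at it. The solid line marks equal signal and the dotted lines 4-fold; the 93 red genes lie above and the 162 blue genes below, and S100a4 lies farthest from equality.

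The sort markers were as follows, as a check of the titles and not as a finding, since the titles name such proteins as what set the subsets apart. Cd8a, the CD8 alpha chain, had a signal of 4742 in CD8+CX3CR1- DCs and 129.5 in DN DCs (2530 in CD8+CX3CR1+ DCs and 18.7 in CD4+ DCs). Its other 4 measured probe sets differed by log2 1.23 to 5.12 in the same direction. Cx3cr1, the fractalkine receptor whose locus carries the reporter, was at 97.3 in CD8+CX3CR1- DCs, the lowest of the 4, and at 258 in DN DCs (894 in CD8+CX3CR1+ DCs and 275 in CD4+ DCs). Cd4 was under the floor in CD8+CX3CR1- DCs (21.1) and at 93.9 in DN DCs, against 564 in CD4+ DCs. Itgax, which encodes CD11c and was used for enrichment in all subsets, was at 3271 and 4042. Flt3, Zbtb46 and H2-Ab1, genes that mark conventional DCs, stood at 2580, 456 and 14812 in CD8+CX3CR1- DCs and at 1477, 340 and 13831 in DN DCs, all within 2-fold.

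Genes known from CD8 DCs (cDC1) were higher in CD8+CX3CR1- DCs. Of 25 measured members, 14 were at least 4-fold higher and 0 lower, 23 were at least 2-fold higher, and the median log2 difference was 2.55, against 0.005 over all measured genes. The list's background at 4-fold is the 0.86% given above, and 87.3% of all measured genes were within 2-fold. Members were chosen with earlier results of these data known, and Cd8a itself was sorted on, so the count describes the list and tests nothing.

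Among receptors of this list, Xcr1, the receptor for the chemokine XCL1 that CD8 T cells and NK cells release, was at 519 in CD8+CX3CR1- DCs and under the floor in DN DCs (52.0), at least 9.31-fold higher. Cadm1, an adhesion molecule that binds a partner on cytotoxic lymphocytes, was at 2621 and 180.7 (14.5-fold), and its other 3 probe sets differed by log2 1.29 to 3.48. Itgae, the CD103 integrin chain, was at 1130 and under the floor (33.0), at least 20.3-fold higher. Cadm1 was at 245 in CD8+CX3CR1+ DCs and 158 in CD4+ DCs, near its level in DN DCs. Tlr3, the endosomal sensor of double-stranded RNA, was at 1338 and 214 (6.24-fold), but its other measured probe set differed by only log2 0.82. Cd36, a scavenger receptor, was at 1454 and 165.4 (8.79-fold). Btla, an inhibitory receptor, was at 5288 and 1984 (2.67-fold), and Cd24a at 3593 and 1509 (2.38-fold); both were under 4-fold.

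Some members of the CD8 DC list act inside the cell. Rab7b, a late endosomal GTPase, was at 3191 in CD8+CX3CR1- DCs and 415 in DN DCs (7.68-fold), with 82.9 in CD8+CX3CR1+ DCs and 28.8, under the floor, in CD4+ DCs. Its other 2 probe sets differed by log2 0.87 and 3.29. Naaa, a lysosomal amidase, was at 7460 and 1985 (3.76-fold), and Ppt1, a lysosomal thioesterase, at 9309 and 3527 (2.64-fold). The other 2 probe sets of Naaa differed by log2 1.92 and 2.40, and the other 3 of Ppt1 by 1.98 to 3.13. Pdia5, a protein disulfide isomerase of the endoplasmic reticulum, was at 3755 and 492 (7.64-fold). Among regulators, Irf8 was at 13285 and 4847 (2.74-fold) and Id2 at 1389 and 566 (2.46-fold). Batf3 was at 2570 and 1668, a log2 difference of 0.62. Irf8 and Batf3, on which cDC1 depend, were thus both under 4-fold apart by the probe sets used. The other measured probe set of Irf8 differed by log2 2.15, which is over 4-fold.

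The DN array was not at zero for this list. Of the 25 genes, 21 lay above the floor on it, and 19 were higher than in CD4+ DCs, 12 of them at least 2-fold. Against the CD8+CX3CR1+ array, 16 of 25 were higher in DN DCs and 12 at least 2-fold. The share of all measured genes higher in DN DCs than on these arrays was not counted, so these counts have no background and only describe the list. Irf8 was at 4847 in DN DCs, 1409 in CD8+CX3CR1+ DCs and 617 in CD4+ DCs. P2ry14, a receptor for UDP-glucose, was at 390, 145 and under the floor (28.0) in the same order. Cd8a was likewise at 129.5 in DN DCs and 18.7 in CD4+ DCs, and its part in these values was not tested. The median signal of the list in DN DCs was 239.5, against 1819 in CD8+CX3CR1- DCs, 87.8 in CD4+ DCs and 121.9 in CD8+CX3CR1+ DCs.

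**Figure D2:**
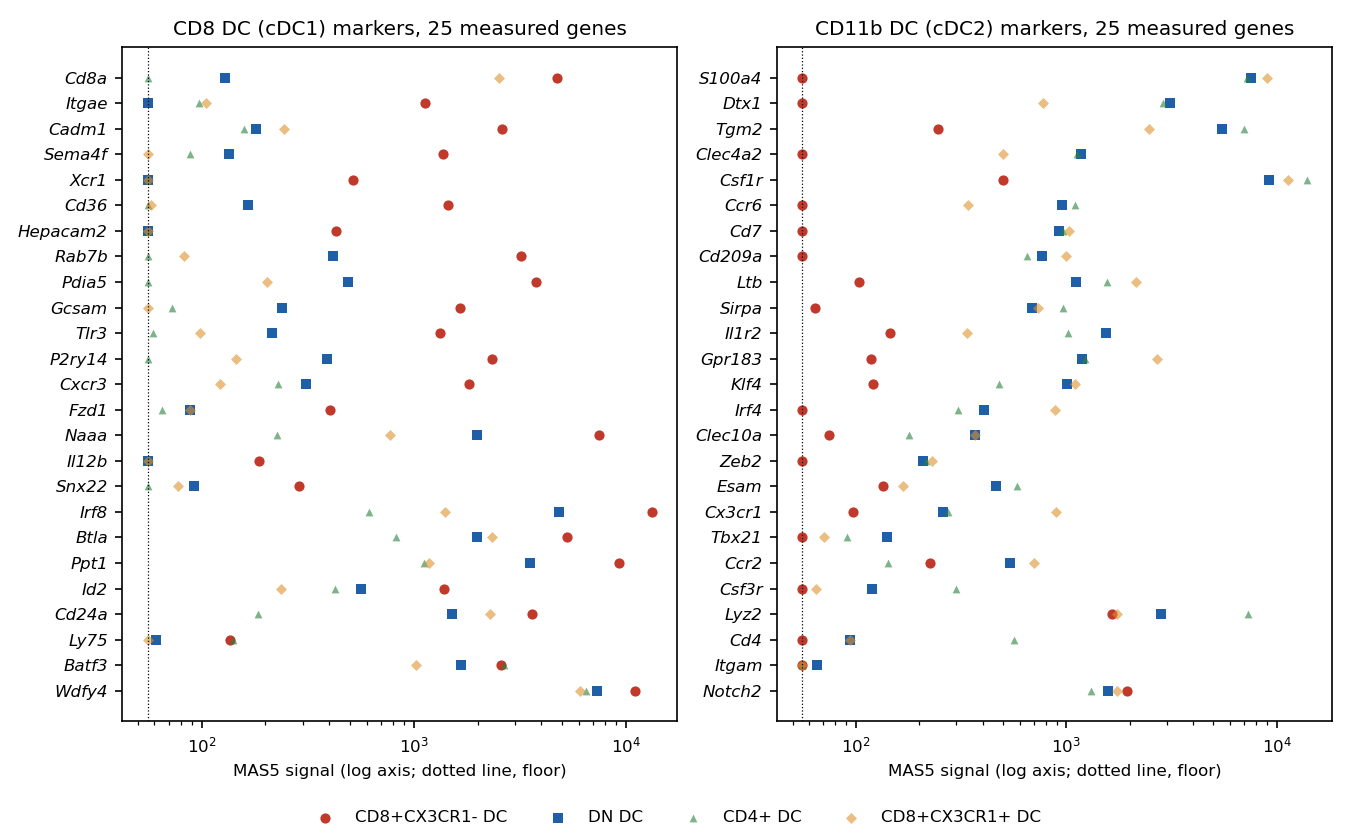
Signal (log axis) of the 25 measured genes of the CD8 DC list and the 25 of the CD11b DC list on each of the 4 arrays, 1 point per array, with the dotted line at the floor of 55.7. The CD8+CX3CR1- array (red) is highest of 4 for 23 genes of the first list and lowest for 22 of the second. Such ranks were not counted over all genes.

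Other genes with the largest differences covered varied functions. Serpinb6b, an inhibitor of serine proteases, was at 1384 in CD8+CX3CR1- DCs and 130.1 in DN DCs (10.6-fold). Sema4f, a semaphorin of the CD8 DC list, was at 1372 and 134 (10.2-fold), and its other probe set differed by log2 2.29. Plpp1, a lipid phosphatase, was at 1252 and 137 (9.12-fold), though its other 2 probe sets ranged from log2 0.24 to 4.52. Hk3, a hexokinase that starts glucose breakdown, was at 830.4 and 100.5 (8.26-fold). Cd81, a tetraspanin that organises membrane receptors, was at 4820 and 588 (8.20-fold). It was also at 1713 in CD4+ DCs. Laptm4b, a lysosomal membrane protein, was at 2663 and 338 (7.87-fold), and its 2 other probe sets, at log2 2.57 and 3.23, gave nearly the same difference. Arhgap42 was at 805 and 105.5 (7.63-fold), but the mean over its probe sets was log2 0.58.

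Of the genes under the floor in DN DCs, the 8 brightest in CD8+CX3CR1- DCs are named. Ttc39a was at 1659 (at least 29.8-fold higher), Gp2, a receptor for bacterial FimH, at 1352 (at least 24.3-fold), and P3h2, a prolyl hydroxylase of collagen, at 819.6 (at least 14.7-fold). Cd207, which encodes langerin, a lectin found on part of the cDC1, was at 725 (at least 13-fold) and under the floor on all of the other arrays. Ptgis, prostacyclin synthase, was at 644 (at least 11.6-fold), and it too was under the floor on the other arrays. Lima1, an actin-binding protein, and Fndc7 followed at 699.9 and 657 (at least 12.6-fold and 11.8-fold), with other probe sets from log2 1.29 to 2.78 and from 0.62 to 2.03. Itgae completes the group.

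The CD11b DC list lay on the other side. Of 25 measured members, 15 were at least 4-fold higher in DN DCs and 0 in CD8+CX3CR1- DCs, and the median log2 difference was -3.06, against a background of 1.5% of measured genes. These members too were chosen with earlier results of these data known, and the sort markers Cd4 and Cx3cr1 are among them. The count thus describes the list and tests nothing. All 25 were above the floor in DN DCs and 13 in CD8+CX3CR1- DCs. S100a4, a calcium-binding protein of motile cells, had the largest difference of any gene: it was at 7578 in DN DCs, 8947 in CD8+CX3CR1+ DCs and 7230 in CD4+ DCs, and at 34.0, under the floor, in CD8+CX3CR1- DCs (at least 136-fold). Sirpa, the receptor for the "do not eat me" signal CD47 and a standard cDC2 marker, was at 687 in DN DCs and 64.1 in CD8+CX3CR1- DCs (10.7-fold). Its other 2 probe sets differed by log2 -1.05 and -0.41, and the mean over its probe sets was -1.69. Irf4, the factor that cDC2 depend on, was at 407 and under the floor (3.5), at least 7.31-fold. Klf4, a zinc finger factor needed by part of the cDC2, was at 1008 and 121.2 (8.32-fold). Zeb2, at 208.8 and under the floor, was at least 3.75-fold apart.

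Growth factor and chemokine receptors of the list followed the same order. Csf1r, the receptor for M-CSF and IL-34, was at 9142 in DN DCs and 498 in CD8+CX3CR1- DCs (18.3-fold), and its other 2 probe sets differed by log2 -4.51 and -2.76. Ccr6, the receptor for CCL20, was at 957 and under the floor (55.5), at least 17.2-fold. Gpr183, the oxysterol receptor that guides cells within the spleen, was at 1190 and 117.8 (10.1-fold). Il1r2, a decoy receptor for interleukin 1, was at 1550 and 145 (10.7-fold), while the CD8+CX3CR1+ array had 336. Ltb, the lymphotoxin beta chain, was at 1112 and 103.0 (10.8-fold). Tgm2, a transglutaminase that cross-links proteins, was at 5492 and 244.7 (22.4-fold), with its other 4 probe sets from log2 -5.89 to -1.04. Esam, an adhesion molecule that marks Notch2-dependent cDC2, was at 464 and 134.8 (3.44-fold). Notch2 itself was at 1585 and 1941, and Itgam, which encodes CD11b, was at 65.1 in DN DCs and under the floor on the other 3 arrays. Lyz2, lysozyme, was at 2834 and 1652, under 2-fold.

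All 162 genes at least 4-fold higher in DN DCs lay above the floor in CD4+ DCs and in CD8+CX3CR1+ DCs as well, with median signals of 703 and 528, against 643 in DN DCs and 75.7 in CD8+CX3CR1- DCs. Among the 93 genes higher in CD8+CX3CR1- DCs the median signals were 729 there, 106.5 in DN DCs, 99.1 in CD4+ DCs and 82.9 in CD8+CX3CR1+ DCs. A gene was represented by the probe set with the highest mean over all 4 arrays, so the levels on the context arrays had a part in which probe set is shown, and how large a part was not tested.

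Some lectins and other receptors of myeloid cells, and the signalling chain Fcer1g, were higher in DN DCs. Of 20 measured C-type lectins, receptors for sugars and for lipids of microbes, 8 were at least 4-fold higher in DN DCs and 0 in CD8+CX3CR1- DCs, with a median of -1.70, where 1.5% and 0.86% of all measured genes were. Clec7a, or dectin-1, the receptor for fungal beta-glucans, was at 3240 in DN DCs and 406 in CD8+CX3CR1- DCs (7.97-fold). Klrd1, an NK receptor chain known from DCs too, was at 2628 and 166.9 (15.7-fold), Cd209a, a relative of DC-SIGN, was at 769 and under the floor (2.4), at least 13.8-fold, and Clec10a, a receptor for galactose-type sugars, was at 369.7 and 74.7 (4.95-fold). Clec4a2 and Clec4a3, lectin receptors, were at 1175 and 967 in DN DCs and under the floor in CD8+CX3CR1- DCs, at least 21.1-fold and 17.4-fold. The other measured probe set of Clec4a2 differed by log2 0 after rounding, and the Clec4a, Cd209, Sirpb1 and Ms4a genes are close relatives of their neighbours whose probes may cross-hybridise, so single members of these families are uncertain.

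The list of Fc receptors and ITAM adaptors also holds Sirp, Cd300 and Trem-type receptors. Of its 16 measured genes, 5 were at least 4-fold higher in DN DCs and 1 in CD8+CX3CR1- DCs, beside 1.5% and 0.86% of all measured genes. The 5 were Fcer1g, Sirpb1a, Sirpa, Cd300lf and Cd300a. No receptor that itself binds antibody was among them, and Fcgr2b and Fcgr4 differed by log2 0.19 and -1.28. Fcer1g, the signalling chain shared by activating Fc receptors, was at 2649 in DN DCs and 125.6 in CD8+CX3CR1- DCs (21.1-fold). Sirpb1a, which signals through Tyrobp, was at 2382 and under the floor (9.0), at least 42.8-fold. Tyrobp, the adaptor itself, was at 10195 and 8258, within 2-fold. Cd300lf and Cd300a, lipid-binding receptors, were at 1378 and 808 in DN DCs and at 122.2 and 177.0 in CD8+CX3CR1- DCs (11.3-fold and 4.57-fold), and Cd300a came to log2 -1.61 with the mean over its probe sets. The exception was Treml4, at 456 in DN DCs and 2124 in CD8+CX3CR1- DCs (4.66-fold higher there), a receptor that binds dead cells. Fcgrt, the neonatal Fc receptor, was at 361 and 999.9 (2.77-fold higher in CD8+CX3CR1- DCs).

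In pattern-recognition receptors the subsets differed by gene and not in one direction. Of 18 measured Toll-like receptors and adaptors, 1 was at least 4-fold higher on each array. Of all measured genes, 1.5% were in DN DCs and 0.86% in CD8+CX3CR1- DCs. Tlr1, which pairs with Tlr2 for bacterial lipopeptides, was at 992 in DN DCs and 75.2 in CD8+CX3CR1- DCs (13.2-fold), while Tlr3 was the member higher in CD8+CX3CR1- DCs. Tlr7, the sensor of single-stranded RNA, was at 146.6 and under the floor (5.6), at least 2.63-fold. Tlr12, a sensor of profilin of protozoa, was at 67.9 and 196 (2.89-fold higher in CD8+CX3CR1- DCs). Tlr2 and Myd88 were within 2-fold.

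Most listed genes of antigen presentation differed little. None of 20 listed MHC class II presentation genes was at least 4-fold apart by the probe set used (median -0.15). H2-Aa was at 23096 in CD8+CX3CR1- DCs and 23492 in DN DCs. H2-DMb2, a chain of the peptide editor H2-DM, was at 911 and 2715 (2.98-fold higher in DN DCs). Its other 2 probe sets differed by log2 -2.11 and -1.99. H2-Eb2, a class II gene outside the list, was at 205.8 and 986.4 (4.79-fold higher in DN DCs). Cst3, an inhibitor of cathepsins, was at 12870 and 5791 (2.22-fold higher in CD8+CX3CR1- DCs). Of 19 MHC class I and cross-presentation genes, 1 was at least 4-fold apart (2.36% of all measured genes were) and the median was 0.69. Psmb9, an immunoproteasome subunit, was at 7126 and 3445 (2.07-fold), Tap1, a subunit of the peptide transporter, at 2008 and 1193 (log2 0.75), and Rab32, a GTPase of endolysosomal organelles, at 971 and 285 (3.40-fold). The gene apart was Cybb, which encodes the catalytic chain of the NADPH oxidase of phagocytes: it was at 107.7 in CD8+CX3CR1- DCs and 3064 in DN DCs (28.5-fold), with the other 2 probe sets at log2 -3.31 and -2.57. Of 8 oxidase genes, Hvcn1, a voltage-gated proton channel, was also higher in DN DCs (438, against 79.5 in CD8+CX3CR1- DCs, 5.51-fold). Of all measured genes, 1.5% were at least 4-fold higher in DN DCs. Cyba, Ncf1 and Ncf4, whose products assemble with that subunit, differed by log2 -0.30, -0.16 and 0.20.

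Chaperones and folding enzymes of the endoplasmic reticulum were slightly higher in CD8+CX3CR1- DCs: the median over 25 genes was 0.58, and 1, Pdia5, was at least 4-fold higher (0.86% of all measured genes were). Creld2, a folding factor of the stress response, was at 4351 in CD8+CX3CR1- DCs and 1502 in DN DCs (2.90-fold), and Pdia3, part of the MHC class I loading complex, at 2890 and 1031 (2.80-fold). Hspa5, or BiP, was at 13458 and 10164 (log2 0.40), and the lowest difference in the list was -0.27. Of 31 endolysosomal and Rab genes, 1 (Rab7b) was at least 4-fold higher in CD8+CX3CR1- DCs and 0 in DN DCs, and the median was 0.12. Tfeb, a regulator of lysosomal genes, was 2.26-fold higher in DN DCs (295, against 130.4).

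**Figure D3:**
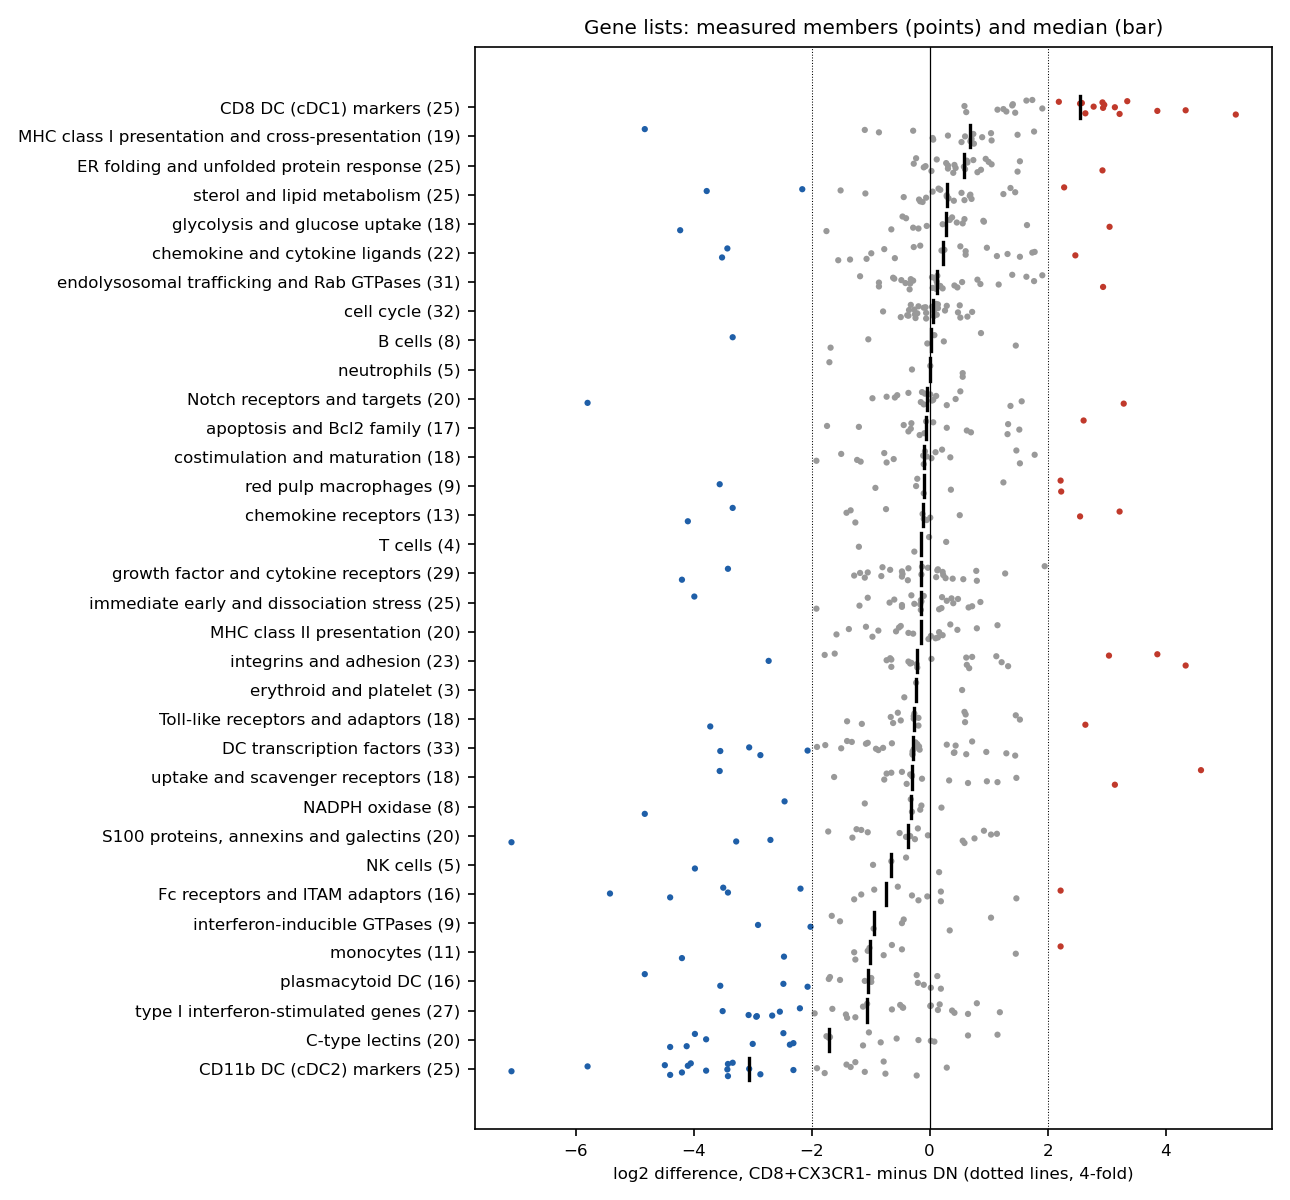
Log2 difference, CD8+CX3CR1- minus DN, of the measured members of 34 gene lists (1 point per gene, the number of measured genes in brackets), with the list median as a bar and 4-fold as dotted lines. The CD8 DC list (median 2.55) and the CD11b DC list (median -3.06) stand at the ends, and the cell cycle list (0.06) lies near equality.

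Costimulation genes (18 measured) had no member at least 4-fold apart, where 2.36% of all measured genes were, and a median of -0.09. In a list of this size that share leaves little room for a count. Cd86, a ligand of CD28, was at 3099 in CD8+CX3CR1- DCs and 1071 in DN DCs (2.89-fold), with its other probe set at log2 2.06, and Il15, which sustains CD8 T cells and NK cells, was at 191 and under the floor (at least 3.43-fold). Relb, an NF-kappaB subunit tied to cDC2, was at 631 and 1782 (2.82-fold higher in DN DCs), and Pdcd1lg2, or PD-L2, was at least 3.77-fold higher in DN DCs (210.3, and under the floor on the other). Ccr7 and Cd80 were within 2-fold.

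In chemokine and cytokine genes, ligands and receptors split between the arrays. Cxcl9, a ligand of Cxcr3, was at 4430 in CD8+CX3CR1- DCs and 800 in DN DCs (5.53-fold), and its other probe set gave log2 2.48. Cxcr3 itself was at 1819 and 311 (5.84-fold). Il12b, the p40 chain of interleukin 12, was at 186 and under the floor (at least 3.35-fold), and Cxcl16 was at 1665 and 669 (2.49-fold). On the DN side Ccl9, a chemokine of myeloid cells, was at 641 and under the floor in CD8+CX3CR1- DCs (at least 11.5-fold; log2 -1.52, under 4-fold, with the mean over its probe sets), and Ccl5, also called RANTES, was at 3752 and 1782 (2.11-fold). Il1b was at 3797 and 1907, a log2 difference of -0.99.

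Genes induced by type I interferon, which code for antiviral effectors, were in part higher in DN DCs. Of 27 measured members, 7 were at least 4-fold higher in DN DCs (1.5% of all measured genes were) and 0 in CD8+CX3CR1- DCs (0.86%). Of the 27, 14 were at least 2-fold higher in DN DCs and 1 in CD8+CX3CR1- DCs, and the median was -1.06. For comparison, 87.3% of all measured genes were within 2-fold. Rtp4, a chaperone of receptors, was at 634 in DN DCs and under the floor (2.8) in CD8+CX3CR1- DCs (at least 11.4-fold). Oas2, an enzyme that senses double-stranded RNA, was at 468 and under the floor (at least 8.40-fold). Ifit3, a partner of the RNA-binding protein Ifit1, was at 427 and under the floor (at least 7.66-fold). Isg20, an RNA exonuclease, was at 516 and 67.8 (7.61-fold), Oas1a, a sensor of the same class as Oas2, at 702 and 110.0 (6.38-fold), and Rsad2, or viperin, at 919 and 158.6 (5.80-fold). Ddx58, or RIG-I, was at 293 and 63.8 (4.59-fold), and its other probe set differed by log2 -0.34. With the mean over all probe sets of a gene, Rtp4 and Rsad2 came to log2 -1.18 and -1.70, under 4-fold. The CD4+ array was higher than the DN array for all 7 of these genes (for example 1053 for Rtp4, 1133 for Ifit3 and 1535 for Rsad2), and over the list it was highest of the 4 for 20 of 27. The CD4+ array also had more probe sets above the floor (47.65%) than the DN array (42.52%). How often it was highest over all genes was not counted. Trim30a, a regulator of inflammatory signalling, at 5275 in CD8+CX3CR1- DCs and 3035 in DN DCs, and Irf7, the factor that amplifies the response, at 426 and 328, went the other way by less than 2-fold. Mx2, an antiviral GTPase, was at 127 and under the floor, at least 2.29-fold higher in CD8+CX3CR1- DCs.

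**Figure D4:**
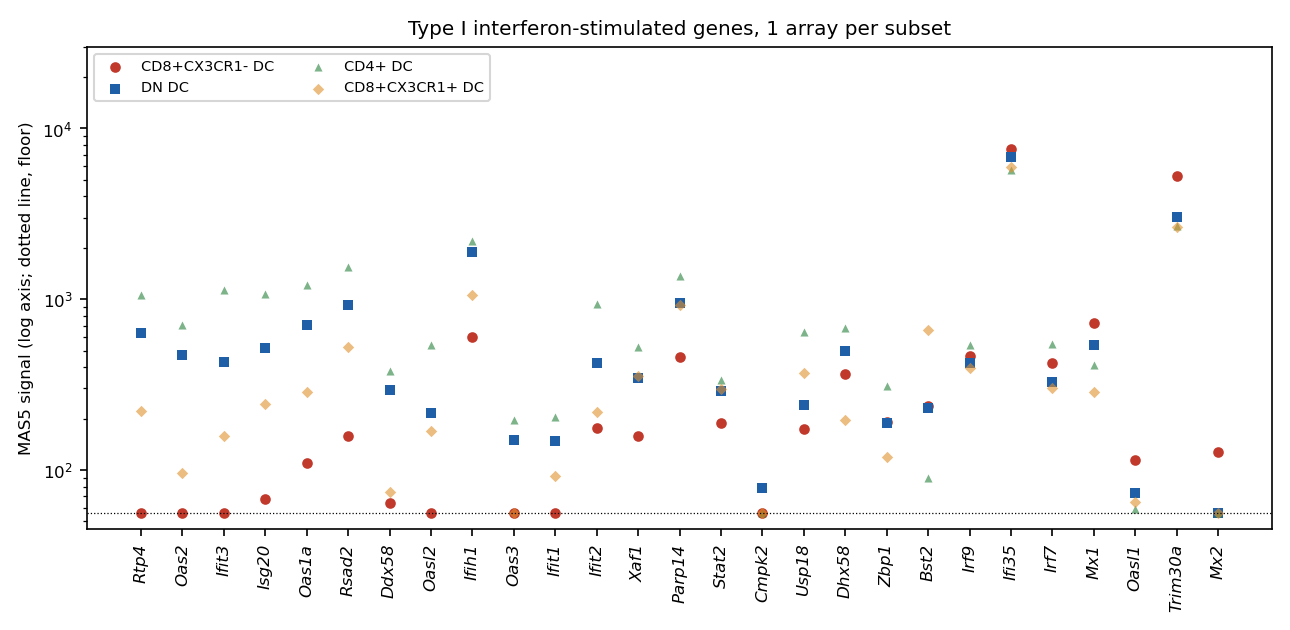
Signal (log axis) of the 27 measured type I interferon-stimulated genes on the 4 arrays, 1 point per array, ordered by the log2 difference and with the dotted line at the floor of 55.7. From Rtp4 to Ddx58 the DN array (blue) is at least 4-fold above the CD8+CX3CR1- array (red), and from Zbp1 to Trim30a the 2 lie within 2-fold.

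Promoters of such genes often hold the interferon-stimulated response element (ISRE), a site bound by factors that interferon activates. Its letters, GAAA followed by 2 bases of any kind and GAAA again, were searched on both strands of RefSeq promoter windows of assembly GRCm38.p6, from 250 bases before to 50 bases after each annotated start. Stretches of 120 bases before the start, chosen to hold the match, are printed for 5 members picked after the search because they hold one, 3 of those at least 4-fold higher in DN DCs and, for contrast, Ifit1 (at least 2.65-fold) and Bst2 (231.6 in DN DCs and 235.5 in CD8+CX3CR1- DCs). Capitals mark the match, which reads TTTC, 2 bases and TTTC where it lies on the other strand, and sequences run 5′ to 3′ on the strand of the gene.
Ifit3, chr19:34583335-34583454, + strand: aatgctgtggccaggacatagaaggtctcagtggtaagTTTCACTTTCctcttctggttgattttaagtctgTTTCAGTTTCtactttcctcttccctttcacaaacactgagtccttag
Oas1a, chr5:120907526-120907645, - strand: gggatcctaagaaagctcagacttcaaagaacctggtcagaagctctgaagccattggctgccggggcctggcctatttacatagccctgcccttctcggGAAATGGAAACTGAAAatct
Rsad2, chr12:26456508-26456627, - strand: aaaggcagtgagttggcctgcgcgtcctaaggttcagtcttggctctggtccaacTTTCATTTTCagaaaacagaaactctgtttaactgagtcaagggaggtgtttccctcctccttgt
Ifit1, chr19:34640739-34640858, + strand: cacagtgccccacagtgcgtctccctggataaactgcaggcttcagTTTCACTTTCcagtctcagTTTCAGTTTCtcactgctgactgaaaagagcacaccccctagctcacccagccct
Bst2, chr8:71537535-71537654, - strand: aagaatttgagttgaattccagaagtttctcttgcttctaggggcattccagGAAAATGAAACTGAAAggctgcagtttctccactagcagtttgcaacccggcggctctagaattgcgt

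Ifit3 had 2 matches, 113 to 156 bases before the start, and Ifit1 had 2, 76 to 104 bases before it. Oas1a had 2 overlapping matches 5 to 20 bases before the start, Rsad2 had 1 at 111 to 120 bases, and Bst2 had 2 overlapping ones at 115 to 130 bases. Bst2, with equal signals on both arrays, thus held as many matches as Ifit3. Among windows of the list's genes higher in DN DCs, 4 of 7 (57.1%, 5 genes) had a match, as did 7 of 17 windows (41.2%) of its other measured genes. The share was 3.4% of all 32851 windows and 3.2% of the 11264 windows of measured genes. It was 9.9% (17 of 171) for the windows of 123 genes at least 4-fold higher in DN DCs. For the windows of 74 genes higher in CD8+CX3CR1- DCs it was 2.3% (2 of 88). Not every gene called had a window, and a gene with several starts has several windows. A composite of Ets and Irf factors, GGAA followed by 2 bases of any kind and GAAA, which can overlap the ISRE, was in 4.1% of DN-higher windows, 1.1% of CD8+CX3CR1- higher windows, 2.5% of those of measured genes and 2.7% of all. The GTGGGAA core bound by Rbpj, the nuclear partner of Notch, was in 8.2%, 6.8%, 6.0% and 6.4% in the same order, and the AP-1 letters TGANTCA in 7.6%, 9.1%, 5.3% and 7.8%. A match describes letters and not binding.

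Interferon-inducible GTPases (9 measured, median -0.95) had 2 members at least 4-fold higher in DN DCs, a side to which 1.5% of all measured genes belonged: Gbp8 (644, against 85.6 in CD8+CX3CR1- DCs, 7.53-fold) and Gbp7 (286 against 70.6, 4.06-fold), which lay just inside the threshold and came to log2 -1.53 with the mean over its probe sets. Iigp1, a GTPase that attacks the vacuoles of parasites, was 2.06-fold higher in CD8+CX3CR1- DCs (181 and 87.6). Irgm1 and Igtp were within 2-fold.

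Transcription factors of DCs (33 measured) had 4 members at least 4-fold higher in DN DCs and 0 in CD8+CX3CR1- DCs, beside 1.5% and 0.86% of all measured genes. Spib, an Ets factor, was at 704.5 in DN DCs and 60.3 in CD8+CX3CR1- DCs (11.7-fold); the lower value lies within the background of its array. Tcf4, the factor of plasmacytoid DCs, was at 1135 in DN DCs and 269.5 in CD8+CX3CR1- DCs (4.21-fold), but its other 4 probe sets ranged from log2 -1.88 to 0.14. Klf4 and Irf4 are given above. Nr4a3, Runx3, Etv6 and Spi1 differed by less than 2-fold, as did Zbtb46 and Notch2.

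Notch pathway genes had a divided pattern (20 measured, median -0.04). On each array 1 member was at least 4-fold higher, beside 1.5% of all measured genes in DN DCs and 0.86% in CD8+CX3CR1- DCs. Dtx1, a target and regulator of Notch signalling, was at 3111 in DN DCs and under the floor (49.9) in CD8+CX3CR1- DCs, at least 55.8-fold, and the mean over its probe sets differed by log2 -1.29. Notch4, a receptor, was at 546 in CD8+CX3CR1- DCs and under the floor (47.3) in DN DCs, at least 9.80-fold. Its other probe set differed by log2 0.78, and the mean over its probe sets by 1.24. Dtx4, a relative of Dtx1, was 2.94-fold higher in CD8+CX3CR1- DCs (227 and 77.3). Hes1, a target in many cells, differed by log2 0.04, Notch1 by 1.37 and Rbpj by 0.44.

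Of 20 measured S100, annexin and galectin genes, 3 were at least 4-fold higher in DN DCs (1.5% of all measured genes were) and 0 in CD8+CX3CR1- DCs, and the median was -0.36. S100a6 and S100a10, relatives of S100a4, were at 1360 and 378 in DN DCs and at 139.7 and 57.9 in CD8+CX3CR1- DCs (9.73-fold and 6.52-fold), the last within background of its array. The other 2 probe sets of S100a10 ran from log2 -2.96 to -0.08, and the mean over its probe sets was -1.93, under 4-fold. Anxa2, which pairs with S100a10 in the cell, was at 4357 and 1759 (2.48-fold), Lgals1, a galectin, at 2457 and 747 (3.29-fold), and Vim, vimentin, at 5501 and 2664 (2.06-fold). Other members lay the other way: Anxa7 was at 571 in CD8+CX3CR1- DCs and 259 in DN DCs (2.20-fold), Anxa6 at 2977 and 1452 (2.05-fold), and Lgals3 and Anxa1 differed by log2 0.92 and 0.76. Itgb3, a beta chain of integrins, was at 369 in DN DCs and under the floor in CD8+CX3CR1- DCs (at least 6.61-fold), but the mean over its probe sets was log2 -0.52. In glucose use, Slc2a3, a glucose transporter, was at 1236 in DN DCs and 66.1 in CD8+CX3CR1- DCs (18.7-fold), with its other measured probe set at log2 -3.77 and a mean over its probe sets of -0.97. Slc2a1, another transporter, was at 368 and 109.7 (3.36-fold). Hk3 and Pfkp, enzymes of glycolysis, were higher in CD8+CX3CR1- DCs, and Pfkp was at 3560 and 1131 (3.15-fold).

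In lipid genes, Plin2, which coats lipid droplets, was at 5163 in CD8+CX3CR1- DCs and 1064 in DN DCs (4.85-fold), and Fabp5, a fatty acid carrier, was at 200.3 and 2758 (13.8-fold higher in DN DCs), with its other probe set at log2 -3.08. Apoe, an apolipoprotein, was at 523 and 220.6 (2.37-fold), below the CD8+CX3CR1+ and CD4+ arrays (1726 and 1397). Ptgs2, cyclooxygenase 2, was at least 4.46-fold higher in DN DCs (248), and came to log2 -1.22 with the mean over its probe sets. Enzymes of sterol synthesis, such as Hmgcs1 and Sqle, were within 2-fold. Of 17 apoptosis genes, Bcl2l14 was 6.10-fold higher in CD8+CX3CR1- DCs (867 and 142.2), with its other probe set at log2 1.88, and Casp1, the inflammasome protease, was 3.33-fold higher in DN DCs (603 and 181).

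Further genes with the largest differences toward the DN array included Ms4a4c, a membrane-spanning protein, at 2767 in DN DCs and 120.5 in CD8+CX3CR1- DCs (23.0-fold), and its other probe set at log2 -4.34. St8sia6, a sialyltransferase, was at 1680 and 95.5 (17.6-fold), with its other 2 probe sets at -2.59 and -2.41. Ddit4, an inhibitor of mTORC1 induced by stress, was at 1376 and 86.7 (15.9-fold), and Dennd3, an exchange factor of a Rab GTPase, at 1582 and 102.3 (15.5-fold). Bex6 was at 1210 and 56.7, which is within the background of its array. Cd7, an immunoglobulin-family protein, was at 924 and under the floor (at least 16.6-fold), and Abca9, a lipid transporter, at 812 and under it (at least 14.6-fold), although the other probe set of Abca9 differed by log2 -0.09.

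The listed cell cycle genes gave no such difference. Of 32 measured, 0 were at least 4-fold or 2-fold apart, the median was 0.06 and the range ran from -0.79 to 0.72. Mki67 was at 2767 in CD8+CX3CR1- DCs and 2879 in DN DCs, and Top2a, which untangles DNA, at 1291 and 1523. Ccnd2, a cyclin outside the list, was at 133.7 and 670.6 (5.02-fold higher in DN DCs). Its other 5 probe sets ranged from log2 -3.22 to -0.62. The listed immediate early genes, which respond to tissue digestion, had 1 of 25 members at least 4-fold apart, Ddit4, and a median of -0.15. Of all measured genes, 2.36% were 4-fold apart. In this list 4 members were at least 2-fold higher in DN DCs and 0 in CD8+CX3CR1- DCs. Of all measured genes, 87.3% were within 2-fold, and the 2-fold share on each side was not counted. Fosl2, a relative of Fos outside the list, was at 134.4 in CD8+CX3CR1- DCs and 646.8 in DN DCs (4.81-fold), with its other probe set at log2 -0.10. Fos was at 4875 and 5393 and Jun at 75.8 and 288 (3.80-fold higher in DN DCs).

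Markers of other cells that a sort could hold were counted too, and their part in the differences was not tested. A summed signal is ruled by the brightest members of its list, and does not measure how many such cells were present. Of the plasmacytoid DC list 16 were measured, 4 at least 4-fold higher in DN DCs (Cybb, Spib, Klra17 and Tcf4) and 0 in CD8+CX3CR1- DCs (1.5% and 0.86% of all measured genes), with a median of -1.05 and summed signals of 8855 in CD8+CX3CR1- DCs and 15061 in DN DCs. The defining marker Siglech was at 63.6 and under the floor (12.9) in the same order, and Bst2 was equal. On the CD8+CX3CR1+ array Siglech was at 206, and that array was highest of the 4 for 13 of 16. How often that array was highest over all genes was not counted. In the monocyte list (11 measured), 2 genes exceeded 4-fold toward DN DCs (Csf1r and Ms4a6c) and 1 in CD8+CX3CR1- DCs (Treml4). The summed signals were 8460 in CD8+CX3CR1- DCs and 19680 in DN DCs, of which Csf1r, also on the CD11b DC list, gave 498 and 9142. Ccr2 was at 225.0 and 540 (2.40-fold higher in DN DCs). Of 9 red pulp macrophage genes, Adgre1, which encodes F4/80 and was at 1692 in DN DCs and 143 in CD8+CX3CR1- DCs (11.8-fold), lay on one side, and Treml4 and Vcam1 (4.70-fold) on the other, with other probe sets of Vcam1 at 0.42 and 0.69. Spic, the defining factor of red pulp macrophages, was at 79.6 in DN DCs and 74.1 in CD8+CX3CR1- DCs. In B cell genes (8 measured, summed signals 4235 and 6388), Cd22, a sialic acid receptor, was at 2713 in DN DCs and 268.6 in CD8+CX3CR1- DCs (10.1-fold), and Ighm at 3045 and 3226. Ms4a1 (CD20) was at 162.5 and 446 (2.74-fold higher in CD8+CX3CR1- DCs). In the NK list (5 measured, 7 under the floor on both arrays) Klrd1 was the 1 gene 4-fold apart. The summed signals were 649 in CD8+CX3CR1- DCs and 3214 in DN DCs, of which Klrd1 gave 166.9 and 2628. The T cell list (4 measured, 7 under the floor on both) had 0 members 4-fold apart and sums of 202 and 286, and the neutrophil list (5 and 4) had 0 and sums of 274 and 313. The erythroid and platelet list (3 and 6) had 0 and sums of 228 and 230. In the red pulp macrophage list 10 further genes were under the floor on both arrays, and the sums of the 9 measured were 3563 and 2801, in the same order.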

How the data were processed

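Gene expression was measured on 4 arrays, 1 per subset, and 2 of them were compared. The deposited values are linear intensity values per probe set, and the submitters' processing notes name MAS5 with no version. MAS5 subtracts background and the mismatch probe's signal; in the deposited table the mean after trimming 2% at each end was 150 on every array, so total RNA per cell cannot be seen. The table holds 45101 probe sets, 64 of them controls. Through the platform annotation 34945 have 1 gene symbol, 932 several and 9160 none, and only the first were named. Of Entrez identifiers, 99.4% stand in the RefSeq gene table. For each gene the probe set brightest on average over the 4 arrays (mean of log2) was used. The floor is the 90th percentile, pooled over arrays, of 127 background probe sets. Python 3.11.15, numpy 2.4.6, pandas 2.3.3 and matplotlib 3.10.9 were used, and the steps were tested on simulated data. No test was possible with 1 array per group, and probe set spread covers probe error only, not mice or sorts.

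The members and gene lists were chosen with earlier results of these data known. The genes named are the sort markers, the 12 largest differences each way above the floor on both arrays, the 8 brightest each way under it on the other array, and up to 5 members of each list each way at least 2-fold apart, plus members needed to show no difference. RIKEN, Gm, LOC, BC, AI and AU symbols were passed over. There were 8 alternatives: quantile normalization, equal median scaling, 3 other floors and no floor, and 2 other choices of probe set.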

Additional observations from a re-analysis of the deposited data

How the results depend on the processing

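No paired analysis was possible because each group has 1 array, and for the same reason no array could be left out. The 93 genes higher in CD8+CX3CR1- DCs and the 162 higher in DN DCs stayed within 1.5 times of these counts under all alternatives but 2: without a floor they were 1644 and 1721, since low signals then enter (48.9% of calls on the CD8+CX3CR1- side against 36.5% with the floor), and with the mean over a gene's probe sets the DN count was 107 (and the other 70). In the other 6 alternatives the counts ran from 77 to 117 and from 132 to 205. No gene was called in the opposite direction under any alternative. With the mean over probe sets, Dtx1 (-1.29), Slc2a3 (-0.97), Sirpa (-1.69), Tcf4 (-0.72), Itgb3 (-0.52), Rtp4 (-1.18), Rsad2 (-1.70), Ptgs2 (-1.22), Ccl9 (-1.52), Cd300a (-1.61), Abca9 (-1.98), S100a10 (-1.93), Gbp7 (-1.53), Notch4 (1.24), Vcam1 (1.13), Fzd1 (0.50), Arhgap42 (0.58) and Unc119b (0.30) were under 4-fold. Without probe sets of the _x, _s and _a types, Tlr3 (0.82), Bcl2l14 (1.88) and Tcf4 (-1.88) were, and of the named genes Gbp7, Gngt2, Ptgs2, Cfap298, Clec4n, Ddx58 and Unc119b were lost under a scaling alternative or a higher floor, at log2 sizes from 1.62 to 2.0. Such losses are given only for named genes and list members still measured under the alternative, so a gene not given here did not necessarily hold. Of the 93 and 162 calls, 61 and 105 were kept with the mean over probe sets. Without the _x, _s and _a types 77 and 131 were kept. The CD8 DC list median ran from 2.0 to 2.61, the CD11b DC median from -3.42 to -2.20 and the interferon median from -1.19 to -0.99. Signals near the background limit what could be called, as none of the genes under 200 on both arrays could be.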

Other observations

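Gene families outside the lists were chosen after their values were seen and are given as counts, beside 1.5% of all measured genes at least 4-fold higher in DN DCs and 0.86% in CD8+CX3CR1- DCs. Of 8 measured Ms4a genes, 3 were at least 4-fold higher in DN DCs (Ms4a4c, Ms4a6b and Ms4a6c), and Ms4a1 differed by log2 1.46 in the other direction. Of 4 Ifitm genes, which restrict virus entry, 3 were at least 4-fold higher in DN DCs: Ifitm3 was at 3893 there and 437 in CD8+CX3CR1- DCs (8.91-fold). Both Tmem176 genes were higher in DN DCs, Tmem176b at 6248 and 631 (9.90-fold). Of 6 beta tubulins 2 were at least 4-fold higher in CD8+CX3CR1- DCs, Tubb6 at 714 and 131.5 (5.43-fold) and Tubb2a at 935 and 228 (4.10-fold), and the alpha tubulins measured were within 2-fold. Plcb4 and Plce1, of 8 phospholipase C genes, were 6.72-fold and at least 5.40-fold higher in CD8+CX3CR1- DCs. Of 44 ribosomal protein genes, 0 were 4-fold apart and the median was 0.05. Among 3530 measured probe sets with no symbol or several, 15 were at least 4-fold higher in CD8+CX3CR1- DCs and 28 in DN DCs; they are unnamed here.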
